A study of Mus musculus with 4 samples.

Results

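Infarction was compared with sham surgery in immune cells from hearts of neonatal mice that lack PD-1. The libraries KO_MI and KO_sham were used, and every barcode with at least 500 UMIs (unique molecular identifiers, counted RNA molecules), at least 200 genes and at most 10% mitochondrial UMIs was kept. That rule kept 6407 barcodes of KO_sham and 7104 of KO_MI, together 13511 of the 23961 kept in the series. Both libraries came from C57BL/6 mice with PD1 deleted on both chromosomes (KO), operated on at postnatal day 2 and examined 7 days later. Surgery was a sham procedure in one library and a myocardial infarction (MI) in the other. Het_sham and Het_MI, from mice with PD1 deleted on 1 chromosome, were made in the same way and are given beside them. All 4 groups therefore carry a PD1 deletion, and no wild-type group was analysed here. Live CD45-positive cells were sorted from digested hearts after the atria had been taken off. The sources used here do not give the deleted part of Pdcd1 or the number of hearts in a library. Each group is 1 library, so no difference below was tested or has a replicate check, and the intervals (95%) cover counting error only.

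PD-1 is an inhibitory receptor of activated lymphocytes that is engaged by PD-L1 and PD-L2 on other cells. Macrophages of the heart include resident cells seeded before birth and cells that arise from blood monocytes, and after infarction they clear dead muscle and help to form scar. Interferon-gamma, made by T cells and NK cells, switches on a known set of genes in macrophages, among them chemokines, guanylate-binding proteins and the machinery of antigen presentation.

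Several properties of the libraries touch these results. KO_sham and KO_MI held 66587021 and 72002420 UMIs in 7787 and 8379 barcodes, and the kept barcodes had medians of 7452 and 7469.5 UMIs. Ptprc, which encodes CD45, had a UMI in 85.9% and 84.1% of them, and the libraries shared 13 barcodes. RNA of 4 Y-linked genes was found in 47.4% of KO_sham cells but in 1 of 7104 KO_MI cells. Het_sham and Het_MI had it in 40.7% and 60.3% of cells. Hearts of both sexes thus entered KO_sham while KO_MI held female cells, so sex and infarction cannot be told apart in this pair. Values from cells with Xist and no Y-linked UMI (1597 KO_sham cells and 6393 KO_MI cells) are given for the main results that they move. Some stand beside those results, and others, among them most list medians of macrophages, only in the closing section.

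Each cell was placed in a lineage by its UMIs of marker genes, and every lineage name below is short for cells like that type (macrophage-like, T-cell-like). A gate is a range of marker UMIs and not a natural type. Of KO_sham and KO_MI macrophages, 1.86% and 2.80% lay near the cut (between 0.1 and 0.4 of the reference marker level, where 0.2 is the cut), against 9.36% and 8.30% of classical monocytes and 12.4% and 15.7% of T cells. The other compared lineages had between 2.27% and 5.75% there. The genes that led each compared gate were its own markers or known genes of that cell type, except in T cells, where no gate marker was among the top 10. Cd163l1, Il17a, Tcrg-C1 and Trdc, genes of gamma-delta and interleukin-17-producing T cells, led that gate. Markers of other lineages had a median over cells of 0 in the macrophage and T cell gates of both KO libraries, with 4 exceptions. Per 10000 UMIs these were type 1 dendritic cell markers in KO_sham and KO_MI macrophages (0.691 and 0.534), cardiomyocyte markers in KO_sham macrophages (0.585) and classical monocyte markers in KO_MI T cells (1.55). The other compared gates had higher medians for some lists. In KO_sham and KO_MI neutrophils, classical monocyte markers had 10.2 and 10.9, and non-classical ones 14.4 and 14.5. Classical monocytes had 3.70 and 5.35 for macrophage markers, and non-classical monocytes 4.47 and 5.42 for classical monocyte markers. B cells had 3.55 and 3.88 for migratory dendritic cell markers.

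Pdcd1 (ENSMUSG00000026285, GRCm38 chr1:94038305-94052553, minus strand) was counted in the KO libraries as well as in the Het libraries. T cells held 15 UMIs in Het_sham, 40 in KO_sham, 54 in Het_MI and 66 in KO_MI, or 17.3, 54.0, 69.8 and 81.5 CPM (UMIs of the gene per 1000000 UMIs of the lineage). The log2 ratio KO_MI over KO_sham was 0.59 [0.00, 1.20], or 0.19 without the cell with the most UMIs. Reads of a 3' assay that lie outside the deleted part do not check the deletion, and the labels do not say which part that is. Pdcd1 was also counted in KO_MI macrophages, with 56 UMIs in 21 cells against 0 UMIs in KO_sham macrophages (at least 19.9-fold higher, with 3 counts set for the 0). The summed level of the 10 T cell markers in macrophages was 62.5 CPM in KO_sham and 113 CPM in KO_MI, and its part in that count was not tested.

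The ligand gene Cd274, which encodes PD-L1, went from 7.27 CPM in KO_sham macrophages to 14.7 in KO_MI macrophages, a log2 ratio of 1.01 [0.79, 1.24]. Non-classical monocytes had a higher level and the opposite direction, with 144 and 99.4 CPM and a log2 ratio of -0.53 [-0.77, -0.30]. Pdcd1lg2, which encodes PD-L2, was scarce in macrophages at 20 and 59 UMIs, a log2 ratio of 1.65 [0.90, 2.46]. It was lower after infarction in non-classical monocytes, at 35 and 7 UMIs and a log2 ratio of -1.62 [-3.03, -0.42]. Counts lay outside the myeloid cells as well, with Cd274 at 29.2 and 27.4 CPM in B cells and Pdcd1lg2 at 10 and 15 UMIs (53.4 and 59.2 CPM) in cells like type 2 innate lymphocytes.

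Macrophages made up similar parts of both KO libraries in the main setting, while the shares of monocytes, B cells and thymocyte-like cells differed beyond counting error. There were 2629 macrophages in KO_sham (41.0%) and 2963 in KO_MI (41.7%), a ratio of shares of 1.016 [0.976, 1.058]. In the Het libraries the macrophage share was 1.558 times as large after infarction (27.8% and 43.3%). Classical monocytes, the Ly6c2-rich cells that enter injured tissue from blood, numbered 299 (4.67%) in KO_sham and 482 (6.78%) in KO_MI, a ratio of 1.454 [1.264, 1.673], against 0.748 in Het. Non-classical monocytes, which patrol vessels, were 730 (11.4%) and 403 (5.67%), a ratio of 0.498 [0.443, 0.560]. Their share was lower after infarction in Het as well, with a ratio of 0.332.

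B cells were the largest lymphoid lineage, with 1101 cells (17.2%) in KO_sham and 725 (10.2%) in KO_MI. Their share ratio was 0.594 [0.544, 0.648], against 0.865 in Het, and it was 0.784 when cells were held to at most 5% mitochondrial UMIs. T cells other than the thymocyte-like ones below were 129 and 140 cells, a ratio of 0.979 [0.772, 1.240]. That ratio was 0.654 [0.469, 0.911] in cells with Xist and no Y-linked UMI. NK cells were 45 and 89, a ratio of 1.784 [1.248, 2.549], and the ratio in Het was 2.781. Neutrophils were 267 and 254, with an interval that held 1 (0.858 [0.725, 1.015]), and in cells with Xist and no Y-linked UMI, 13 of them in KO_sham, the ratio was 1.499 [0.835, 2.689].

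T cells with at least 2 UMIs of Rag1, Rag2, Dntt, Ptcra, Arpp21, Cd4 or Cd8b1, genes of developing thymocytes or of T cell subsets, were counted apart as thymocyte-like. They were 85 cells (1.33%) in KO_sham and 263 (3.70%) in KO_MI, a ratio of 2.791 [2.190, 3.555]. The Het libraries had the opposite order, with 427 cells in Het_sham (7.94%) and 124 in Het_MI (2.44%), a ratio of 0.308. Rag1, part of the recombinase of antigen receptor genes, was at 227 and 238 CPM in these cells of KO_sham and KO_MI, and Dntt, which adds bases at the joins, was at 189 and 222 CPM. Other genes of the split were lower in KO_MI. Cd8b1 was at 322 and 226 CPM (-0.52 [-0.74, -0.29]) and Cd4 at 89.8 and 58.1 CPM (-0.63 [-1.06, -0.19]). Ptcra was higher, with 16 and 115 UMIs (1.11 [0.35, 1.97]). Rag2 had a log2 ratio of 0.72 [-0.38, 2.02] and Arpp21 0.24 [-0.06, 0.54]. All these genes set these cells apart, so their levels here describe the split. Il2ra, an interleukin-2 receptor chain that was not used for it, was at 23.1 and 62.1 CPM (1.43 [0.70, 2.24]). Genes of cytotoxic cells were also counted in this gate and went both ways. The granule protease gene Gzma was at 422 and 598 CPM, and Gzmb had 19 and 231 UMIs (1.87 [1.19, 2.63]). The cell with the most Gzmb held 57.9% of its KO_sham UMIs. Ccl5 was lower in KO_MI, at 1285 and 446 CPM, and Prf1 had 7 and 4 UMIs. The source of this RNA was not tested.

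Droplets with markers of several lineages were set apart, and they were 682 (10.6%) in KO_sham and 1222 (17.2%) in KO_MI, a ratio of 1.616 [1.481, 1.764]. Most of the difference was in droplets with macrophage and T cell markers, at 180 (2.81%) and 637 (8.97%). Their share ratio was 3.192 [2.714, 3.753], where the product of the shares of single macrophages and single T cells, thymocyte-like cells included (214 and 403), gave 1.726. Thymocyte UMIs were found in 55.6% and 79.7% of them. The other macrophage pairs also lay above their product. Droplets with macrophage and neutrophil markers had a ratio of 1.828 [1.389, 2.405], where the product gave 0.872. Those with macrophage and B cell markers had 0.979 [0.822, 1.165], where it gave 0.604. Droplets with B cell and T cell markers had a ratio of 0.973 [0.665, 1.422], where it gave 1.009. Whether such droplets are pairs of cells was not tested.

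**Figure D1:**
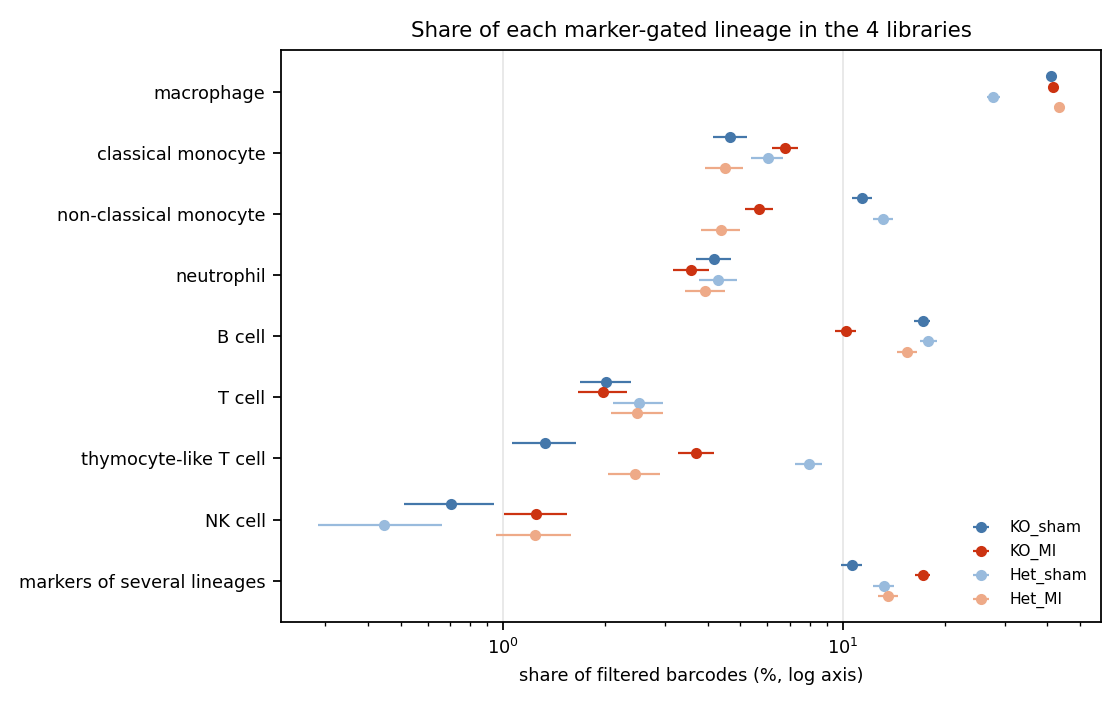
Share of kept cells (%, log axis) in 8 gates and among droplets with markers of several lineages, for the 4 libraries, with exact 95% intervals for counting error. In the KO pair the macrophage points lie together (41.0% and 41.7%), while non-classical monocytes (11.4% and 5.67%) and B cells (17.2% and 10.2%) are lower and thymocyte-like cells (1.33% and 3.70%) higher in KO_MI.

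In macrophages, 13173 genes had at least 30 UMIs over both KO libraries. At a fold of 1.5 or more, 6.63% of them were higher and 5.17% lower in KO_MI, and the median log2 ratio of all of them was -0.12. Scaling by TMM (edgeR) moved each log2 ratio in macrophages up by 0.11, about the size of that median. UMIs per macrophage were fewer in KO_MI, at a median of 8846 against 10992. In Het 7.16% of 13172 of these genes were higher and 6.92% lower, with a median of -0.07 (3 counts set for a 0 in 1 library). The counts behind the KO shares depend on the scaling and the depth. Under TMM 681 lower genes became 394, and under median-of-ratios factors 389. When each cell was thinned to 2000 UMIs, 874 higher genes became 486. Fewer genes reach 30 UMIs after thinning, so the count of 486 has a smaller base and does not by itself give a smaller share. The same 20 genes named below as highest and lowest kept their direction and a fold of 1.5 or more among the 730 KO_sham and 2847 KO_MI macrophages that had Xist and lacked Y-linked UMIs.

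Among genes that met the naming rule the highest ratio was that of Arg1, which encodes the arginine-degrading enzyme arginase 1, with 16 UMIs (0.465 CPM) in KO_sham and 3230 (100 CPM) in KO_MI macrophages. Its log2 ratio was 7.75 [7.05, 8.56], and in Het it was 4.23 (0.957 and 17.9 CPM). Marco, a scavenger receptor, stood at 26.7 CPM in Het_sham, 7.82 in KO_sham, 30.1 in Het_MI and 181 in KO_MI. In macrophages KO_MI was therefore the highest of the 4 libraries for both genes. Arg1 was counted in classical monocytes as well, with 0 UMIs in KO_sham and 522 (140 CPM) in KO_MI. In Het these monocytes had 0 UMIs in Het_sham and 242 (120 CPM) in Het_MI. How these counts were spread over cells is not given here. The log2 ratio of Marco was 4.53 [4.36, 4.71] in KO and 0.17 in Het, and its ratio of ratios (KO log2 ratio minus Het log2 ratio) of 4.36 was the largest among genes that met the naming rule.

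Genes known from lipid-laden and scar-forming macrophages formed a second group among the highest. Spp1, which encodes the matrix protein osteopontin, was at 54.0 CPM in Het_sham, 56.9 in KO_sham, 1070 in Het_MI and 1370 in KO_MI. Its log2 ratio was 4.59 [4.52, 4.65] in KO and 4.31 in Het, so the infarct libraries of both genotypes were high. Gpnmb, a membrane glycoprotein of lysosome-rich cells, went from 7.85 to 153 CPM in KO (4.28 [4.11, 4.47]) and from 6.13 to 159 in Het. Fabp5, a fatty acid carrier, went from 96.7 to 434 CPM in KO, a log2 ratio of 2.16 [2.11, 2.22]. Fn1, which encodes fibronectin, went from 35.9 to 368 CPM in KO (3.36) and from 26.7 to 133 in Het (2.32), and Mmp12, macrophage elastase, had log2 ratios of 2.67 and 2.47.

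The list of 17 lipid-associated macrophage genes had a median log2 ratio of 0.72 in KO, with 11 members at least 1.5-fold higher and 0 lower. Lgals3, which encodes galectin-3, went from 423 to 1232 CPM, and Trem2, a lipid-sensing receptor and gate marker, from 366 to 602. Cd36, a fatty acid transporter, was the lowest member at -0.55. In Het the median was 0.41, with 8 members higher. Of 18 matrix and protease genes, 9 were higher and 0 lower (median 0.65), and the highest was Timp1, an inhibitor of matrix proteases, with 10 and 149 UMIs. These 2 lists share Mmp12. The 6 classical monocyte markers summed to 89.9 CPM in KO_sham and 172 CPM in KO_MI macrophages, and the 6 markers of type 2 dendritic cells to 19.2 and 33.3 CPM. Their part in the values of macrophages was not tested.

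Genes known to respond to interferon-gamma were higher in KO_MI than in KO_sham macrophages, and fewer of them were higher in Het_MI. Of 21 members, 15 were at least 1.5-fold higher and 0 lower, with a median log2 ratio of 1.11 (1.17 in cells with Xist and no Y-linked UMI). The Het median was -0.12, with 5 members higher, and the median over members of the ratio of ratios was 1.14. Part of this list is known to be switched on through 2 promoter motifs, the GAS site (searched as TTCNNNGAA, which reads the same on both strands) and the ISRE (searched on both strands as GAAA, any 2 bases and GAAA, or TTTC, any 2 bases and TTTC). The window searched was the 250 bases before each gene's start in RefSeq on GRCm38.p6. A GAS match was present in 7.02% of all 32851 promoters and an ISRE match in 2.98%. Promoters were matched for 16 of the 21 list genes (19 promoters), of which 36.8% held a GAS match and 42.1% an ISRE match. The 4 windows below are shown because their genes were higher in KO_MI macrophages and hold a match, and capitals mark the matches.
Gbp2: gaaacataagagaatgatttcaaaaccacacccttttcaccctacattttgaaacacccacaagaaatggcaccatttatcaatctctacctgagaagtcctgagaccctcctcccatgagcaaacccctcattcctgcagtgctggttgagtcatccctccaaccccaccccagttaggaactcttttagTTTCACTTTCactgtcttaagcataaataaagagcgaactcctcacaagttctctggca
Igtp: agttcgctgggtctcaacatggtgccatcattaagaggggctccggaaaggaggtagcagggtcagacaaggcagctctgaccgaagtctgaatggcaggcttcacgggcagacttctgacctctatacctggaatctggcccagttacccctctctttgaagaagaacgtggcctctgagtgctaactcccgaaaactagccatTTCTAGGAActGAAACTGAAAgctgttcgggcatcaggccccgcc
Irgm1: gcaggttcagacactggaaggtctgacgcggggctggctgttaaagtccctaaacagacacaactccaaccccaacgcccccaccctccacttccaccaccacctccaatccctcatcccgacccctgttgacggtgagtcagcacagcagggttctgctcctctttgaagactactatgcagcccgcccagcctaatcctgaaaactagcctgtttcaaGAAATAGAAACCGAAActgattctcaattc
Serpina3g: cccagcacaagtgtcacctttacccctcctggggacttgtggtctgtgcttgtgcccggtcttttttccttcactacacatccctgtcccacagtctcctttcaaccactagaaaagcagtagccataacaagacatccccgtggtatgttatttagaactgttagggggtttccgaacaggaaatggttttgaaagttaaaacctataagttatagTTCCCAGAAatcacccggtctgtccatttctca
Gbp2 lies at chr3:142620413-142620662 (plus strand), Igtp at chr11:58199306-58199555 (plus), Irgm1 at chr11:48871421-48871670 (minus) and Serpina3g at chr12:104235897-104236146 (plus). Igtp holds a GAS match whose end lies 36 bases before the start and an ISRE match at 24. Gbp2 holds an ISRE match at 49 bases, Irgm1 holds 2 overlapping ones at 20 and 14, and Serpina3g holds a GAS match at 24. The windows of Cxcl9, Ccl8, Marco and Gpnmb hold neither, which says only that these letters are not in those 250 bases. Matches were not limited to list genes that were higher. Cxcl10, which was lower in KO_MI, holds an ISRE match at 203 bases, and Irf1, inside the 1.5-fold limit, a GAS match at 81. Spp1, of the lipid-associated list, holds an ISRE match at 147.

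Gbp2, a guanylate-binding protein that acts on membranes around microbes, was at 9.57 CPM in Het_sham, 8.17 in KO_sham, 10.3 in Het_MI and 83.1 in KO_MI macrophages. Only the KO_MI value stood apart, and the log2 ratios were 3.35 [3.17, 3.53] in KO and 0.11 in Het. Cxcl9, a chemokine that attracts activated T cells, was at 0.338, 1.34, 1.48 and 110 CPM in the same order, with log2 ratios of 6.37 [5.95, 6.82] and 2.13. The immunity-related GTPases Iigp1, Igtp and Irgm1 had log2 ratios of 3.33, 0.96 and 0.81. Serpina3g, a protease inhibitor, had 16 and 384 UMIs. Gbp2 and Serpina3g have near-identical family members, so their own counts are uncertain.

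Cxcl10, also a chemokine of this list, went the other way, from 1124 to 771 CPM (-0.54 [-0.57, -0.52]), with 467 and 994 CPM in Het. Irf1, a transcription factor induced early, had 102 and 116 CPM (0.18 [0.11, 0.25]). Both were therefore already abundant in KO_sham. Among 21 measured genes of the type I interferon response, 12 were higher and 0 lower (median 0.62), where Het had -0.33. Zbp1, a nucleic acid sensor, went from 18.2 to 53.4 CPM in KO and from 27.1 to 18.5 in Het.

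Antigen presentation genes followed. Of 10 MHC class II genes, 8 were higher and 0 lower in KO (median 1.59), and 7 were higher in Het (median 1.08). H2-Aa, the alpha chain of a class II molecule, was at 50.5 CPM in Het_sham, 100 in KO_sham, 221 in Het_MI and 565 in KO_MI (2.49 [2.44, 2.54] in KO and 2.13 in Het). Cd74, the class II invariant chain, was at 390 and 1516 CPM in KO. Class II was higher after infarction in both genotypes, and the member median of the ratio of ratios was 0.41. It was 0.07 when droplets with several lineages were given to their leading lineage. For MHC class I, 8 of 14 members were higher and 0 lower (median 0.61), and the ratio of ratios was above 0 in 14 of 14. H2-K1, a class I heavy chain, was at 746 and 1408 CPM in KO and at 746 and 836 in Het, while H2-Q7 (1.75) cannot be told from H2-Q6 with certainty.

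**Figure D2:**
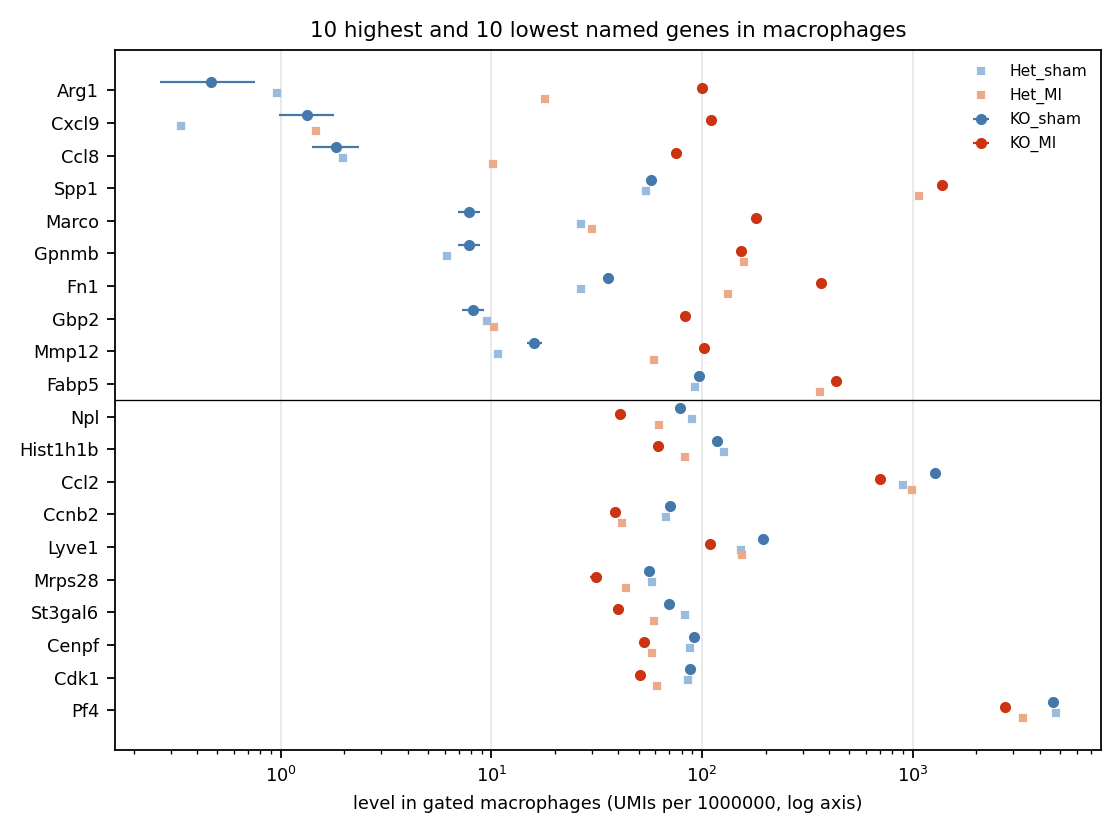
Level (CPM, log axis) of the 10 highest and 10 lowest named genes in macrophages of the 4 libraries, with 95% counting intervals on the KO libraries. Spp1 and Gpnmb are high in both infarct libraries, whereas Marco (181 CPM) and Gbp2 (83.1 CPM) are high only in KO_MI.

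**Figure D3:**
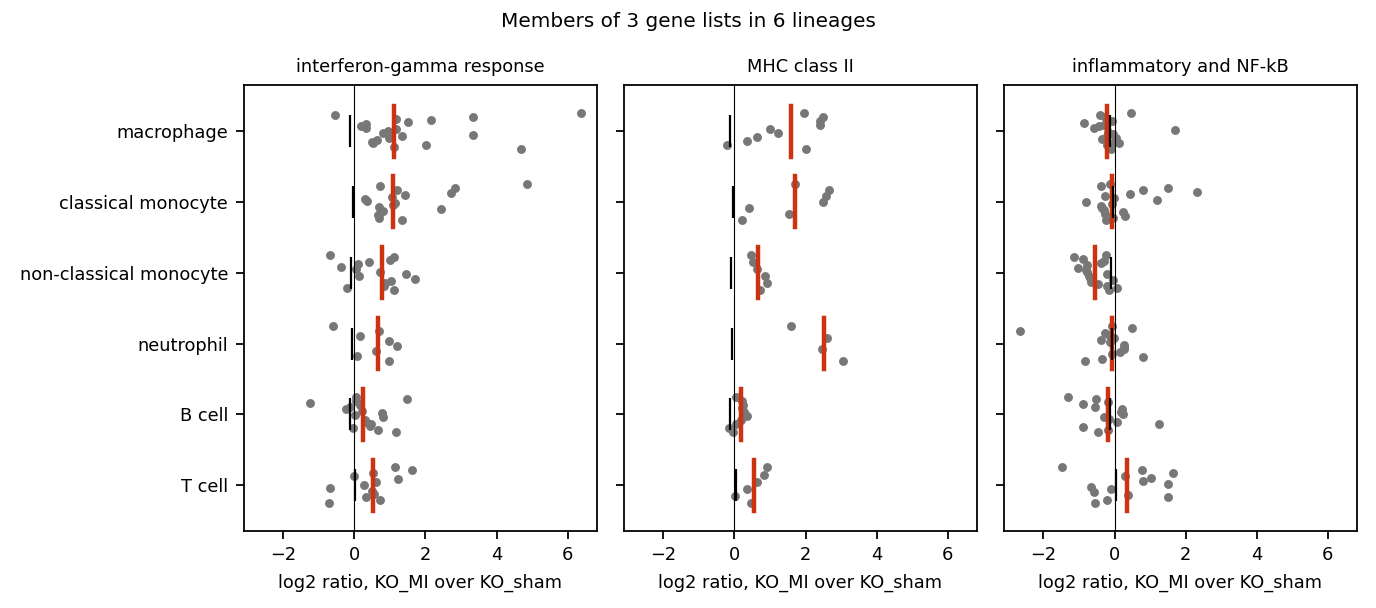
Log2 ratio KO_MI over KO_sham of each measured member (grey points) of 3 lists in 6 lineages, with the list median (red bar) and the median of all measured genes of that lineage (black tick). In macrophages the interferon-gamma median is 1.11 and the MHC class II median 1.59, and the inflammatory median is -0.20.

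Ccl8, a chemokine for monocytes and other leukocytes, went from 1.83 to 75.4 CPM in KO macrophages (5.36 [5.002, 5.748]) and from 1.97 to 10.2 in Het (2.37). Its ratio of ratios was 2.99, and it was 1.05 in cells with Xist and no Y-linked UMI. Few cells carried most of this RNA, since 50% of the Ccl8 UMIs of KO_MI macrophages lay in 8 cells. The same share of Cxcl9, Spp1 and Arg1 UMIs lay in 11, 29 and 32 cells of 2963.

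After each macrophage was thinned to 5000 UMIs, which left out 332 KO_sham and 566 KO_MI cells, the shares with a UMI could be set side by side. Arg1 was found in 0.218% of KO_sham and 7.97% of KO_MI macrophages (0.456% and 9.89% unthinned). Spp1 was found in 9.97% and 33.1%, Gbp2 in 3.18% and 15.4% and H2-Aa in 7.66% and 24.2% (15.1% and 37.8%, 6.73% and 22.0%, and 10.99% and 25.9% unthinned). Free RNA can put a UMI into a cell that does not make it. At 2000 UMIs a cell, KO_MI B cells had Arg1 in 0.642%, Spp1 in 2.41% and Gbp2 in 5.14%, and KO_MI macrophages had them in 5.08%, 22.97% and 8.06%. B cells can express Gbp2 and the class II genes themselves. Their median depth was 3223 UMIs, against 8846 in macrophages.

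Among KO_MI macrophages thinned in this way, Gpnmb was found in 34.2% of cells with Spp1 and in 5.24% of those without. Gbp2 was found in 65.5% of cells with Cxcl9 and in 13.5% of the rest, and H2-Aa in 72.4% and 22.4%. Marco was found in 28.8% of cells with Arg1 and in 3.72% of the rest. Lyve1, a receptor of resident cardiac macrophages, was found in 6.20% of cells with Gpnmb and 17.6% of those without, but in 28.8% of cells with Arg1 and 14.8% of those without. Cells with Arg1 also had Spp1 more often (50.8% against 31.6%), as well as Gpnmb (26.2% against 13.8%) and Gbp2 (30.4% against 14.1%), and H2-Aa was found in 30.8% of cells with Spp1 and in 21.01% of the rest. Cxcl9 was found in 2.62% of cells with Arg1 and 3.72% of those without, and Marco in 5.67% and 5.74% of cells with and without Spp1. These cells share 1 library, so the shares describe that library.

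The lowest ratios in macrophages were smaller in size and included genes of resident and dividing cells. Lyve1 went from 195 to 109 CPM in KO (-0.84 [-0.90, -0.78]) and from 152 to 155 in Het. Pf4, a chemokine abundant in resident macrophages, went from 4622 to 2728 CPM in KO (-0.76) and from 4784 to 3353 in Het. Of 13 resident macrophage genes, 4 were lower and 1 higher (median -0.34, Het 0.04). The 1 higher member was Vsig4, a complement receptor, at 11.1 and 41.0 CPM. Mrc1, a mannose receptor, was at 1314 and 905 CPM (-0.54), inside the 1.5-fold limit.

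All 22 cell cycle genes had ratios below 0 in KO, with 10 at least 1.5-fold lower and 0 higher (median -0.57), and 8 were lower in Het (median -0.41). Mki67, a marker of dividing cells, was at 197 and 119 CPM in KO and at 199 and 161 in Het. Thinned macrophages had a Mki67 UMI in 28.5% of KO_sham and 22.0% of KO_MI cells (38.1% and 27.8% unthinned). Cenpf and Cdk1, of mitotic chromosomes and mitotic entry, had log2 ratios of -0.79 and -0.78, Ccnb2, a mitotic cyclin, -0.86, and the histone gene Hist1h1b -0.92. Npl (-0.95), Mrps28 (-0.84) and St3gal6 (-0.81) completed the lowest genes.

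Inflammatory genes were higher after infarction in Het macrophages, and in KO their median lay near that of all genes. Tnf, an early cytokine, was at 356 CPM in Het_sham, 835 in KO_sham, 874 in Het_MI and 630 in KO_MI. The sham level was thus the low one in Het and the higher one in KO, with log2 ratios of 1.29 and -0.41 [-0.43, -0.38]. Ptgs2, the inducible cyclooxygenase, was at 18.3, 58.8, 98.1 and 60.7 CPM in the same order. Il1a and Cxcl1, a cytokine and a neutrophil chemokine, had ratios of ratios of -2.17 and -1.87. Ccl2, which draws monocytes, was at 1273 and 695 CPM in KO (-0.87 [-0.90, -0.85]) and at 897 and 987 in Het.

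Of the 20 inflammatory genes, 1 was higher and 1 lower in KO (median -0.20), where 17 were higher and 0 lower in Het (median 1.21). The ratio of ratios was above 0 in 0 of 20 members (median -1.14). The higher member in KO was Il6, at 3.63 and 11.8 CPM. Immediate early genes, which digestion of tissue is known to induce, moved with this list: their summed level was 7026 CPM in Het_sham, 9777 in KO_sham, 10812 in Het_MI and 9085 in KO_MI macrophages. Their part in the inflammatory values was not tested.

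**Figure D4:**
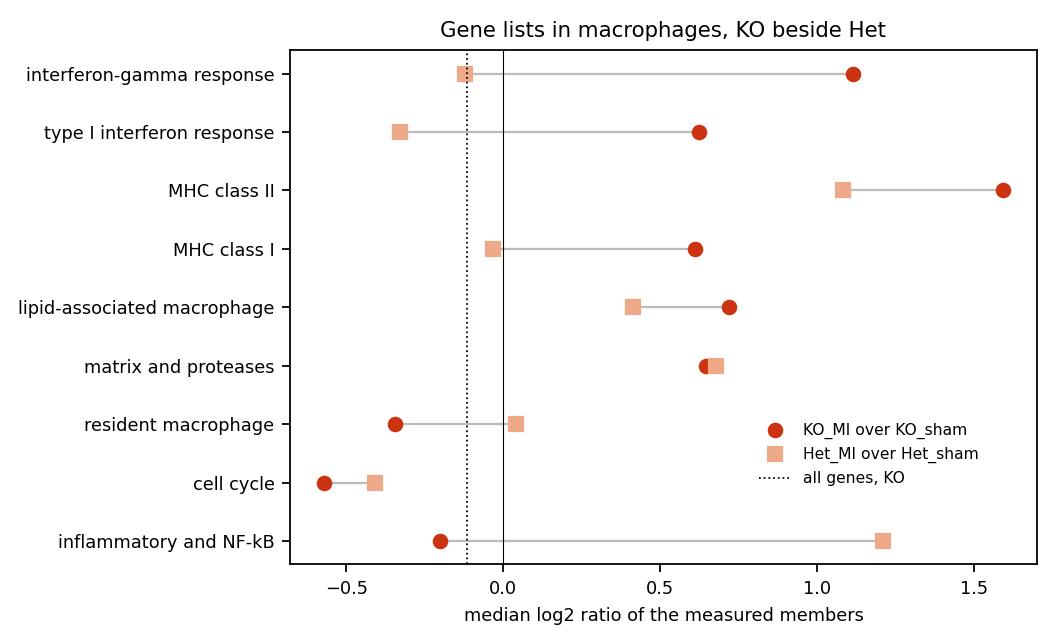
Median log2 ratio of infarction over sham for gene lists in macrophages, KO (circles) beside Het (squares), with the dotted line at the median of all genes in KO. The interferon lists lie right of 0 in KO and left of it in Het (1.11 and -0.12 for interferon-gamma), the inflammatory list right of 0 in Het (1.21) and near the dotted line in KO (-0.20), and the lipid-associated and matrix lists right of 0 in both.

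Classical monocytes had the interferon-gamma pattern as well. In this lineage 6.29% of 8309 genes were at least 1.5-fold higher and 6.86% lower, and 17 of 19 measured list members were higher and 0 lower (median 1.09, Het 0.26). Gbp2 went from 17.2 to 121 CPM (2.82 [2.35, 3.32]), and Ifi47, an immunity-related GTPase, from 9.88 to 53.5 (2.44 [1.81, 3.13]). Cfb, complement factor B, had a log2 ratio of 1.86 and Ly6i 1.68. Of 7 measured class II genes 5 were higher (median 1.71), with Cd74 at 352 and 1153 CPM, and the Het median was 1.79. The summed level of macrophage markers in this gate was 906 and 1415 CPM, and its part in these values was not tested.

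In classical monocytes Sdc4, a cell surface proteoglycan, had the lowest ratio of ratios among genes that met the naming rule, -2.72. Mmp12 had 2 UMIs in KO_sham and 567 in KO_MI, a log2 ratio of 7.46 [5.61, 10.51], or 7.00 without the cell that held 27.5% of them. The lowest genes were Hspa1b (-1.39) and Hspa1a (-1.01), near-identical heat shock genes, then Fam102b (-0.99), Id3 (-0.93) and Pmaip1 (-0.85). In cells with Xist and no Y-linked UMI, Hspa1b and Hspa1a had ratios of 0.56 and 0.51, the opposite sign.

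In non-classical monocytes 4.77% of 8073 genes were higher and 9.02% lower. Of 18 measured inflammatory genes 9 were lower and 0 higher (median -0.55), and Het had 10 higher (median 0.77), where 6.89% of all genes were higher and 8.04% lower. Tnf was at 431 and 197 CPM (-1.13 [-1.29, -0.97]) and the chemokine gene Ccl4 at 821 and 400 (-1.04). Of 16 interferon-gamma genes 9 were higher and 1 lower (median 0.78). Cfb (1.60), Ifi27l2a (1.47), Ms4a4c (1.39) and the class I genes H2-T22 (1.36) and H2-Q7 (1.35) were the highest. Zc3h12c (-1.44), Tceal9 (-1.42), Mllt6 (-1.20) and Ets1, a transcription factor (-1.08), were among the lowest.

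In neutrophils 8.81% of 3838 genes were higher and 11.3% lower, and 5 of 8 measured interferon-gamma genes were higher and 1 lower (median 0.65). Plac8 was at 293 CPM in Het_sham, 184 in KO_sham, 105 in Het_MI and 679 in KO_MI. H2-K1 went from 428 to 934 CPM (1.13 [0.93, 1.33]). Cxcr4, which holds neutrophils in bone marrow, went from 463 to 253 (-0.87), and Prok2 had -0.97. Xist without a Y-linked UMI was found in 13 KO_sham and 78 KO_MI neutrophils. In these cells 4 of the 8 named genes were beyond 1.5-fold in the same direction, among them Plac8 (3.13) and H2-K1. Cxcr4 had -0.43 there, and Prok2, with no UMI in those KO_sham cells, was the 1 named gene with the opposite direction. All 4 measured class II genes were higher (median 2.52), but these rest on 1 cell, since without the cell that held most of its UMIs each of the 4 had a ratio below 0. H2-Aa went from a log2 ratio of 2.60 to -1.04, H2-Ab1 from 2.45 to -0.97, H2-Eb1 from 3.05 to -0.50 and Cd74 from 1.58 to -0.52.

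B cells had the smallest share of higher genes, with 3.56% of 9261 genes higher and 8.18% lower. Of 18 interferon-gamma genes 5 were higher and 1 lower (median 0.25), and of 14 class I genes 3 were higher and 0 lower. H2-Q7 and H2-Q6, near-identical class I genes, had log2 ratios of 1.61 and 1.21, and Ifi27l2a, an interferon-induced gene, went from 223 to 470 CPM (1.08 [0.97, 1.18]). Ube2c, of mitosis, had 1.12 and Ly6a 0.99. Hspa1b (-0.99) and Hspa1a (-0.86) were the lowest, and in cells with Xist and no Y-linked UMI they had 1.13 and 1.003. RNA of other lineages was also counted in the gate, with Spp1 at 10.8 and 53.8 CPM and the T cell and NK cell chemokine Ccl5 at 3.32 and 83.8 CPM in B cells. For each, 1 cell held most of the KO_MI UMIs (76.8% of Spp1 and 79.2% of Ccl5).

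T cells had the largest share of higher genes, with 13.1% of 5064 genes higher and 11.1% lower over 129 and 140 cells. Their sums held 740165 and 809685 UMIs, against 34401032 and 32281391 in macrophages. Counting error alone carries more genes past 1.5-fold at such depth, so these shares do not rank the lineages by response. Cells with at least 2 UMIs of the thymocyte-like list, which includes the subset genes Cd4 and Cd8b1, were not in this gate. Genes of naive lymphocytes were lower in KO_MI: 11 of 11 measured members were at least 1.5-fold lower (median -1.24), against 2 lower in Het (median -0.14), where 13.4% of all genes were higher and 14.6% lower. Lef1, a transcription factor of naive T cells, was at 209 CPM in Het_sham, 222 in KO_sham, 191 in Het_MI and 77.8 in KO_MI (-1.51 [-1.95, -1.08] in KO). Ccr7, which guides cells to lymph nodes, went from 145 to 49.4 CPM and S1pr1, which lets them leave, from 81.1 to 25.9. KO_MI was the lowest of the 4 libraries for these 3 genes. Klf2 went from 188 to 69.2 CPM in KO but from 285 to 95.7 in Het.

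Genes of cytotoxic cells were higher, 12 of 14 measured members by at least 1.5-fold and 0 lower (median 1.03, Het -0.37). The median was 2.57 in cells with Xist and no Y-linked UMI and 1.956 at a minimum of 100 UMIs a gene. Gzma, a granule protease, was at 389 CPM in Het_sham, 339 in KO_sham, 256 in Het_MI and 1796 in KO_MI (2.40 [2.21, 2.60] in KO). Gzmb (21.6 and 183 CPM, 3.08) and the chemokine gene Xcl1 (33.8 and 354 CPM, 3.39) had 39.9% and 36.6% of their KO_MI UMIs in 1 cell, and without it their log2 ratios were 2.35 and 2.73. Gzmc had 0 and 114 UMIs, at least 34.7-fold higher, but in 9 cells, 1 of which held 64. Ccl5, a chemokine of effector cells, was high in both at 2964 and 3715 CPM (0.33). Ifng, the source of interferon-gamma, had 25 and 47 UMIs (0.78 [0.05, 1.54]), and 92.4 and 22.0 CPM in Het. In NK cells Ifng was at 121 and 146 CPM (0.27 [-0.34, 0.90]) and in thymocyte-like cells at 19.1 and 19.2 CPM (0.01).

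Among the other named T cell genes, Cd163l1 (1.66) and Tcrg-C1 (1.54) of gamma-delta T cells and Cd160 (1.66), a receptor of cytotoxic cells, were higher, as were Got1 and Atp5k. Kif1b (-1.56), Txnip (-1.51) and Dusp10 (-1.45) were lower. Of 19 cell cycle genes 11 were higher (median 0.75), but the median was 0.13 when each cell was thinned to 2000 UMIs. In this gate the summed B cell markers were at 32.4 and 140 CPM and the macrophage markers at 173 and 392 CPM, and NK cell markers at 85.1 and 110 CPM. Their part in the T cell values was not tested. Fewer cells of a kind and less RNA per cell cannot be told apart in sums over a gate.

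**Figure D5:**
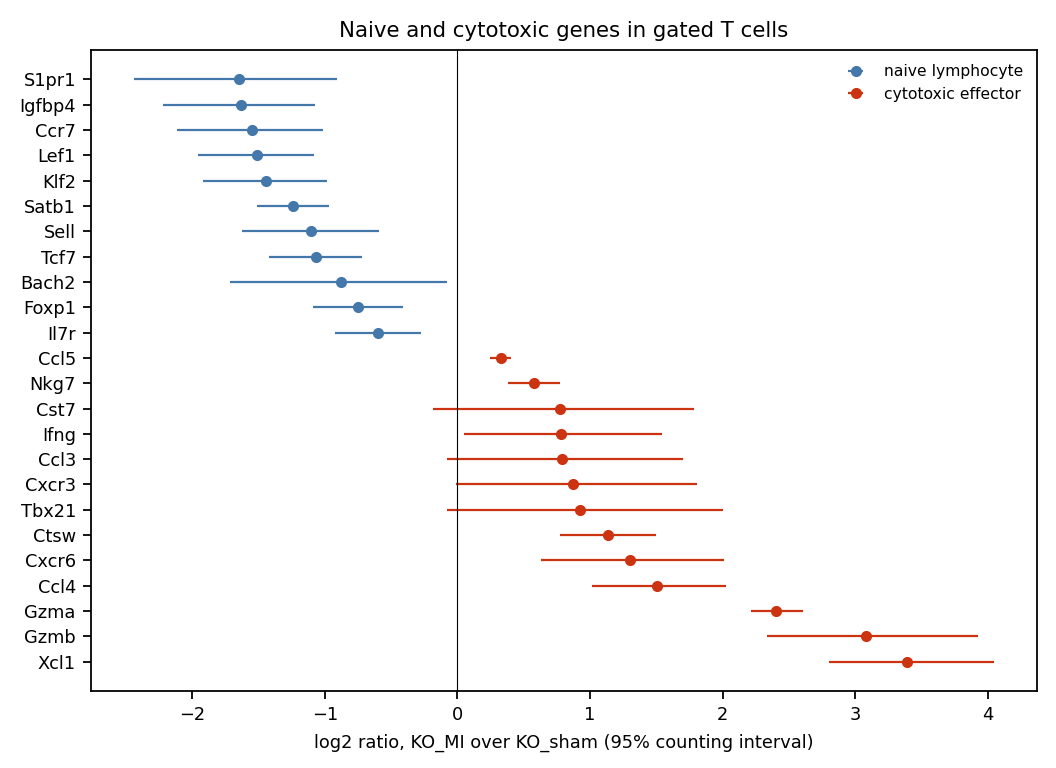
Log2 ratio KO_MI over KO_sham of the measured naive (blue) and cytotoxic (red) genes in T cells, with 95% counting intervals (lines). Every naive gene lies left of 0, as Lef1 at -1.51, and the cytotoxic points lie right of it, as Gzma at 2.40, with the intervals of Cst7, Ccl3, Cxcr3 and Tbx21 reaching 0; Gzmc, with 0 UMIs in KO_sham, is not drawn.

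NK cells were too few for a comparison across genes, at 45 and 89. Their Gzma was at 6162 and 10341 CPM, their Ccl5 at 3127 and 6872 and their Prf1, which encodes perforin, at 67.8 and 307 CPM. Each was higher in KO_MI, and in Het Gzma (7083 and 8032 CPM), Ccl5 (5463 and 10111 CPM) and Prf1 (77.2 and 119 CPM) were higher after infarction too. Klrg1, a receptor of mature NK cells, had 2 and 72 UMIs, a log2 ratio of 4.36 [2.45, 7.43].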

How the data were processed

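Single-cell RNA was measured in 4 libraries, 1 per group. The authors deposited, for each library, a matrix of unnormalized UMI counts. Per the submitters' processing notes, Cell Ranger 6.1.1 and Seurat 4 were used with builds mm10 and GRCm38. Per the file headers, the matrices come from Cell Ranger 4.0.0, and the sources used here do not settle which version applies.

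Gates needed at least 3 UMIs from at least 2 markers of a lineage, at 0.2 or more of its reference level. These cuts, 9 allowed marker pairs, and the granule neutrophil and thymocyte-like splits were set after marker counts were seen. No doublet caller was run; droplets of several lineages were set apart. UMIs were summed per lineage as CPM, for lineages with at least 100 cells in both libraries and genes with at least 30 UMIs. Log2 ratios carry exact conditional binomial intervals, levels Poisson and shares Clopper-Pearson intervals; ratios of shares and of ratios carry normal approximations on the log scale. The calculation was tested on simulated data.

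Named genes were the 10 highest and 10 lowest ratios in macrophages, 5 of each elsewhere, with at least 100 UMIs, 50 CPM in the higher library, an interval beyond 1.5-fold, no cell with over 20% of its UMIs, and 10% of the level in its highest lineage. Not eligible were gate markers, sex-linked genes, unnamed gene models, receptor segments, and haemoglobin, ribosomal protein and mitochondrial genes. For the ratio of ratios 5 of each were taken in macrophages and 2 elsewhere, and up to 4 abundant members plus the highest and lowest of described lists. Other genes given as examples were chosen after their values were seen. The members and all 32 lists were chosen with earlier results of these data known. Python 3.11.15, numpy 2.4.6, scipy 1.17.1, pandas 2.3.3 and edgeR 4.0.16 (for scaling factors) were used. One gene that met these rules is not reported here.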

Additional observations from a re-analysis of the deposited data

How the results depend on the processing

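No paired analysis was possible because each group has 1 library, and for that reason no replicate could be left out. Of 1424 values under other settings, 4 reversed the sign of a log2 ratio whose main interval left out 0. These were Hspa1b and Hspa1a, given with the classical monocytes (0.56 and 0.51) and B cells (1.13 and 1.003). All 4 came from cells with Xist and no Y-linked UMI. Another 66 of 378 values of main results and 208 of 1046 other values moved. Moved means outside the main interval or, for gene counts, changed by more than 1.5-fold. The other values are ratios of named genes and gene counts outside macrophages. In cells with Xist and no Y-linked UMI, 51 of them moved and 46 did not. Genes with 0 UMIs in 1 library under a setting, such as Prok2 in neutrophils with Xist and no Y-linked UMI, gave no value and are not among the 1424. All 20 list medians described kept their sign under each setting that gave a value. The class II list of neutrophils gave none in the Xist cells, where 13 KO_sham neutrophils remained, in thinned cells or with cuts at 0.5 of their value. The cause of the shifts below was not tested.

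In cells with Xist and no Y-linked UMI, the share ratios were 0.974 for macrophages, 1.499 for neutrophils, 0.654 for T cells and 2.01 for several-lineage droplets. List medians there were 0.88 (type I interferon), 1.01 (lipid-associated), -0.31 (resident), -0.82 (cell cycle) and -0.38 (inflammatory) in macrophages, -1.04 (inflammatory, non-classical monocytes), 1.43 (interferon-gamma, neutrophils) and 2.57 (cytotoxic, T cells). Ratios of ratios in macrophages were 0.50 (class I), 0.75 (lipid-associated), -0.084 (matrix), -0.45 (resident) and -1.27 (inflammatory).

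With each cell thinned to 2000 UMIs, 486 macrophage genes were higher, against 874. Macrophage medians were 0.58 (type I interferon), -0.30 (resident), -0.70 (cell cycle) and -0.16 (inflammatory), and ratios of ratios -0.055 (matrix) and -0.17 (resident). The matrix value is 0.19 otherwise, so both settings gave it the opposite sign. The class II median was 2.23 in classical monocytes, and the T cell cycle median 0.13. TMM and median-of-ratios factors left 394 and 389 macrophage genes lower, against 681. They gave 1.71 and 1.71 (class II), 0.73 and 0.73 (class I), -0.23 and -0.23 (resident), -0.46 and -0.45 (cell cycle), and -0.088 and -0.086 (inflammatory). The mean of per-cell CPM gave 0.57 (class I), -0.27 (resident) and -0.15 (inflammatory) in macrophages, and 1.76 (class II, neutrophils).

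A minimum of 1 UMI gave 3412 higher and 3046 lower macrophage genes, among more measured genes than in the main setting. Class II medians were then 1.56 in classical monocytes and 1.39 in neutrophils. A minimum of 100 UMIs gave 514 and 402 such genes, among fewer measured genes than in the main setting. It also gave 2.10 for class II in classical monocytes and 1.956 for cytotoxic genes in T cells. With several-lineage droplets assigned, the macrophage share ratio was 1.12, macrophage medians were 1.27 (class II), -0.41 (resident) and -0.46 (cell cycle), ratios of ratios 0.071 (class II) and -1.20 (inflammatory), and class II medians 1.16 in classical monocytes and 1.10 in neutrophils. Doubled gate cuts gave share ratios of 1.06 (macrophages) and 2.21 (several lineages) and a class II median of 1.21 in classical monocytes, and cuts at 0.5 of their value gave 2.43. With gated immune cells as denominator the macrophage ratio was 1.11. At most 5% mitochondrial UMIs gave 0.971 (macrophages), 0.784 (B cells) and 1.78 (several lineages).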
